A study of Mus musculus with 4 samples.

Results

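Imprinted genes are expressed mainly or only from the chromosome inherited from 1 parent. The parental choice is set by DNA methylation laid down in the egg or sperm at control regions, and the genes often lie in clusters in which neighbours use opposite alleles. Many of them act on fetal growth, placental function and the exit from the cell cycle, and several are strongly expressed in embryonic mesenchyme. A panel of 53 imprinted mouse genes was examined here in 4 RNA sequencing libraries of primary mouse embryonic fibroblasts (MEFs). Symbols were mapped to gene identifiers with GENCODE M21, and a gene was kept when it reached 1 FPKM in any library. FPKM counts fragments for each kilobase of exon among 1e+06 fragments, so levels of different genes can be set beside each other per length. Of the 53 genes, 37 were kept, out of 12817 genes that passed the same filter in the whole series. FPKM sums both alleles, so these values show how much RNA a gene gave and not which parental copy it came from. The parental allele given for each gene below is background knowledge.

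The series profiled MEFs with and without the kinase gene Dyrk2 while Hedgehog signalling was switched on. All 4 cultures had been given 100 nM SAG, an agonist of the Hedgehog transducer Smoothened, for 24 h. The groups were wild type (WT), Dyrk2-KO (the knockout), WT with the control siRNA siNeg, and WT with siDyrk2, an siRNA against Dyrk2. Each group held 1 library. The labels give no strain, embryo or passage, and no dose or time for the siRNAs, and cultures without SAG were not analysed here. Each difference below is therefore between 2 libraries, without a replicate check and without a test. The intervals given are 95% counting intervals on fragments recovered from the FPKM values. They cover counting error only.

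Depth was estimated at 20 to 23.9 M fragments (M, 1e+06) for each library. The Dyrk2 transcript stood at 6.59 FPKM (wild type), 0.57 (knockout), 7.06 (siNeg) and 0.81 (siDyrk2) and was low in both cultures labelled as depleted of it. All 12 fibroblast markers were measured, with sums of 8350, 9020, 8150 and 6790 FPKM in that order. Their median log2 ratio was -0.30 with siDyrk2 against siNeg. None of the epithelial, red cell or trophoblast markers reached 1 FPKM. Neural and glial markers (3 of 8 measured) summed to 18.0, 13.3, 18.7 and 28.6 FPKM. Of the chondrocyte markers 2 of 6 were measured, and of the endothelial, muscle and hepatocyte markers 1 each. Macrophage and leukocyte markers (11 of 12 measured) summed to 277 FPKM in wild type, 549 in the knockout, 322 with siNeg and 399 with siDyrk2. The only listed marker of that type below the filter was Ptprc, at 0.45 to 0.75 FPKM. Adipocyte markers (4 of 8 measured) summed to 60.3, 95.7, 57.1 and 67.1 FPKM, with 4 of 4 higher in the knockout than in wild type and Adipoq at 0. The G2/M genes (23 of 24 measured) summed to 217, 82.7, 314 and 289 FPKM in the same order. Y-linked Ddx3y was at 8.28 FPKM in the knockout and at 0.02 or less in the other libraries, so embryo and genotype cannot be told apart in the knockout pair. Xist, checked beside the Y-linked genes, was at 37.05 FPKM in wild type, 26.37 in the knockout, 32.33 with siNeg and 27.48 with siDyrk2. The knockout library thus held both Xist and Y-linked RNA. The part of these cell types and of cell division in the differences below was not tested.

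The imprinted genes spanned more than 3 orders of magnitude in level. H19, a maternally expressed noncoding RNA, was the most abundant, at 1970.74 to 2895.93 FPKM. Cdkn1c, Mest, Gnas, Cd81, Grb10 and Igf2r were also above 100 FPKM in every library, which made 7 such genes with H19. These include Cdkn1c, an inhibitor of cyclin-dependent kinases, Igf2r, which carries IGF2 to lysosomes for degradation, and Grb10, an adaptor that dampens insulin and IGF receptor signals. Of the kept genes, 19 are maternally expressed (27 listed) and 18 paternally expressed (26 listed). Ddc, an amino acid decarboxylase gene, passed the filter only through siDyrk2, with 0.40, 0.48, 0.62 and 1.03 FPKM in wild type, knockout, siNeg and siDyrk2.

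**Figure D1:**
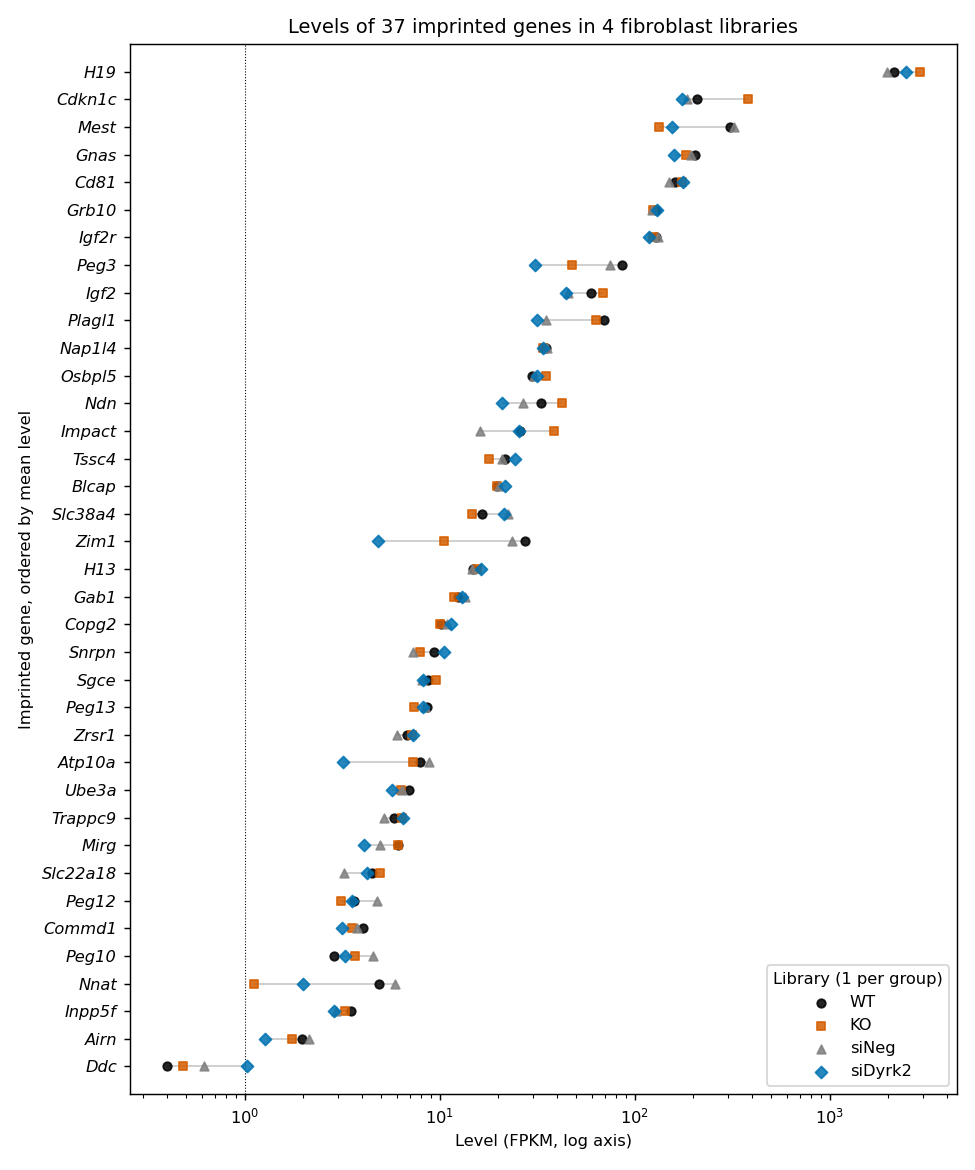
Level of each of the 37 kept imprinted genes in FPKM on a log axis, 1 symbol per library, ordered by mean level. H19 lies alone near the right edge, and the symbols of Mest, Peg3, Zim1 and Nnat split into a high pair (wild type and siNeg) and a low pair (knockout and siDyrk2).

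Below the filter were 16 genes: Dlk1, Meg3, Rian, Rtl1, Usp29, Ppp1r9a, Asb4, Calcr, Phlda2, Kcnq1ot1, Ascl2, Magel2, Mkrn3, Nespas, Kcnk9 and Sfmbt2. Rtl1, Calcr and Kcnk9 were at 0 in all 4 libraries, which allows at most 0.0236, 0.0384 and 0.0122 FPKM (3 fragments) in the shallowest of them. Of the 5 listed genes of the Dlk1-Meg3 cluster on chromosome 12, 1 was kept. Dlk1, a paternally expressed transmembrane inhibitor of differentiation, reached at most 0.07 FPKM, the maternally expressed noncoding RNAs Meg3 and Rian at most 0.22 and 0.03, and the kept gene was Mirg, a noncoding RNA at the far end of the same cluster. Mirg was at 6.13 FPKM in wild type, 6.13 in the knockout, 4.92 with siNeg and 4.10 with siDyrk2. Begain, a gene of the same domain that is not among the 53, was at 10.31, 11.67, 8.40 and 6.32 FPKM in that order. Of 14 annotated miRNA genes that lie inside Mirg, 7 reached 1 FPKM, with at most 15 fragments each. Of the 17 small RNA genes inside Rian and the 2 inside Meg3, none did.

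In the knockout against wild type, 3 of the 37 imprinted genes were at least 2-fold lower on the scale of FPKM + 1, namely Mest, Zim1 and Nnat, and 0 were at least 2-fold higher. That is 8.11% lower, where 1.21% of all 12817 genes were at least 2-fold lower and 0.57% at least 2-fold higher. All 3 are protein-coding, and of the protein-coding genes 0.763% were at least 2-fold lower. With siDyrk2 against siNeg, 5 imprinted genes were at least 2-fold lower (Mest, Zim1, Nnat, Peg3 and Atp10a) and 0 were higher by as much. That is 13.5% lower, where 0.796% of all genes were lower by as much, 0.749% higher, and 0.431% of the protein-coding genes lower. In a bulk sample, fewer cells of a type that expresses such a gene and less of its RNA per cell cannot be told apart.

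Over all 37 kept genes, the median ratio lay close to 0 in both pairs. The median log2 ratio of FPKM + 1 was -0.05 in the knockout, beside -0.02 over all genes, and 27 of 37 (73.0%) lay within 0.25 of 0, beside 75.2% of all genes. With siDyrk2 the median was -0.05, beside 0.02 over all genes, and 21 of 37 (56.8%) lay within 0.25, beside 68.6%. In the siRNA pair 13 of 18 paternally expressed genes were lower (72.2%, median -0.05) and 9 of 19 maternally expressed genes (47.4%, median 0.05), beside 45.0% of all genes. In the knockout pair 11 of 18 paternally expressed genes (61.1%, median -0.09) were lower, beside 55.6% of all genes. Of the maternally expressed genes 11 of 19 were lower there (57.9%, median -0.02). Most of the 14 kept genes whose imprinting is known from few tissues are maternally expressed. In the siRNA pair 7 of these 14 were lower (median 0.01), and 15 of the 23 with widespread imprinting (65.2%, median -0.09). In the knockout pair 10 of the 14 (71.4%) and 12 of the 23 (52.2%) were lower. A difference by parental copy apart from breadth of imprinting was not tested.

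**Figure D2:**
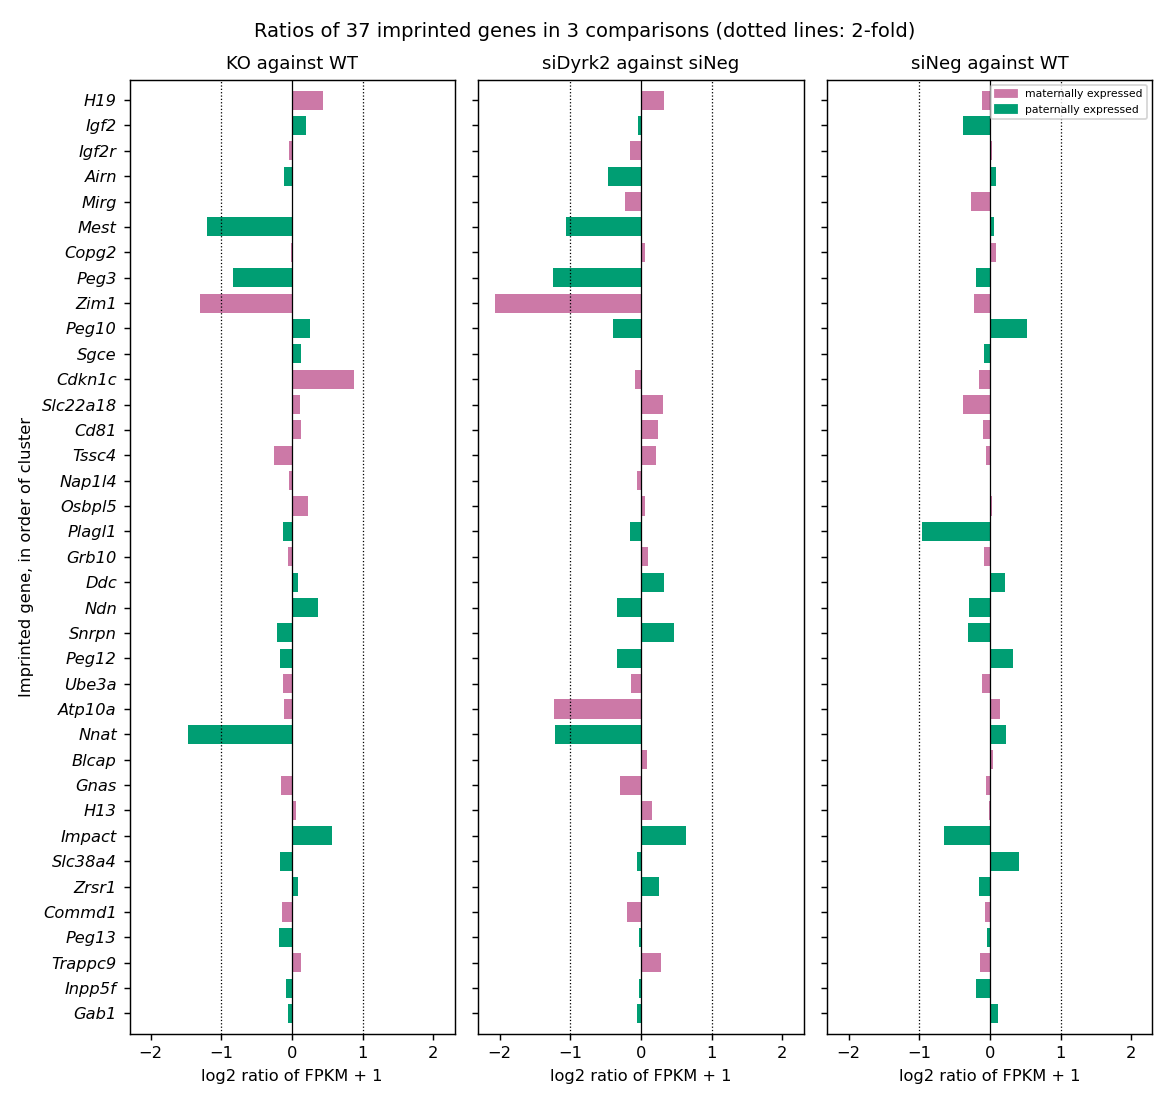
Log2 ratio of FPKM + 1 for the 37 kept imprinted genes in the 3 comparisons, 1 bar per gene, coloured by the parental copy expressed, with dotted lines at 2-fold. Bars that cross the left dotted line belong to Mest, Zim1 and Nnat in the first panel and to these, Peg3 and Atp10a in the second, and no bar crosses a dotted line in the siNeg panel.

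Mest, also known as Peg1, encodes an enzyme of the alpha/beta hydrolase fold and is a paternally expressed gene of mesoderm and of growing mesenchyme. It lies at chr6:30723547-30748465 on the plus strand of GRCm38. Mest was at 309.54 FPKM in wild type, 133.62 in the knockout, 322.28 with siNeg and 154.45 with siDyrk2. Both cultures with low Dyrk2 thus lay below both controls, and the controls differed from each other by a log2 ratio of 0.06. Mest was 2.32-fold lower in the knockout (counting interval 2.27 to 2.37) and 2.09-fold lower with siDyrk2 (2.04 to 2.13). Copg2, a gene for a coat protein of Golgi vesicles, runs towards Mest from the other strand and shares 23.1% of the exonic bases of Mest. It is reported as maternally expressed in few tissues. Copg2 was at 10.15, 9.97, 10.88 and 11.38 FPKM in wild type, knockout, siNeg and siDyrk2, with log2 ratios of -0.02 and 0.06 in the 2 pairs. Whether reads were assigned by strand is not given in the sources used here.

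Mir335, a miRNA gene, lies in an intron of Mest. It was chosen for mention after its values were seen. Its 2 mature products are shown because they are the regulatory RNAs made from the Mest transcription unit, with the seed (bases 2 to 8) in capitals, from RefSeq on GRCm38.p6. The 5p product lies at chr6:30741314-30741336 and the 3p product at chr6:30741354-30741375, both on the plus strand.
mmu-miR-335-5p: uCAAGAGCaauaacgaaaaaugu
mmu-miR-335-3p: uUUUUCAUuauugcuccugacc
The annotated Mir335 gene took up 10 fragments in wild type, 4 in the knockout, 7 with siNeg and 2 with siDyrk2. These counts are too few to set the cultures apart, and libraries made after polyA selection do not measure the mature miRNA. Mir483, inside Igf2, took up 13, 2, 4 and 6 fragments, and Mir675, the miRNA gene inside H19, took up 0 in all 4 libraries.

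The Peg3 cluster on chromosome 7 was lower throughout in both cultures with low Dyrk2. Peg3 encodes a large zinc finger protein of the paternal set, and lies at chr7:6703892-6730431 on the minus strand. Its level was 85.76 FPKM in wild type, 47.76 in the knockout, 74.56 with siNeg and 30.79 with siDyrk2. That is 1.80-fold lower in the knockout (1.76 to 1.83), just inside the 2-fold line, and 2.42-fold lower with siDyrk2 (2.36 to 2.48). Zim1, a zinc finger gene whose start lies 33.98 kb away on the same strand (chr7:6671269-6696450), is expressed from the other, maternal copy. Zim1 was at 27.32, 10.45, 23.34 and 4.80 FPKM in wild type, knockout, siNeg and siDyrk2. It was 2.61-fold lower in the knockout (2.48 to 2.76) and 4.86-fold lower with siDyrk2 (4.51 to 5.25), the lowest ratio of any kept imprinted gene in the siRNA pair. The paternally expressed and the maternally expressed gene of this cluster were therefore low in the same 2 libraries.

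Usp29, a gene of the ubiquitin protease family that starts opposite Peg3 on the plus strand, stayed below the filter. It was at 0.46 FPKM in wild type, 0.17 in the knockout, 0.37 with siNeg and 0.21 with siDyrk2, from 199, 67, 134 and 82 fragments. It was 2.71-fold lower in the knockout (2.05 to 3.64) and 1.76-fold lower with siDyrk2 (1.32 to 2.34). Of its exonic length 14.3% is shared with Zim3 on the other strand. Peg3 and Zim1 share no exonic base with another annotated gene.

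Nnat encodes neuronatin, a small membrane protein of the endoplasmic reticulum, is paternally expressed, and lies within an intron of Blcap at chr2:157560078-157562522 on the plus strand. Nnat was at 4.89 FPKM in wild type, 1.12 in the knockout, 5.91 with siNeg and 1.99 with siDyrk2, from 214, 45, 216 and 78 fragments. It was 4.37-fold lower in the knockout (3.14 to 6.14) and 2.97-fold lower with siDyrk2 (2.29 to 3.91), with wider intervals than Mest or Peg3 because fewer fragments were counted. Blcap, the host gene on the other strand, was at 19.68, 19.64, 20.20 and 21.61 FPKM in the same order. Low Nnat was thus seen beside nearly equal Blcap in all 4 libraries.

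**Figure D3:**
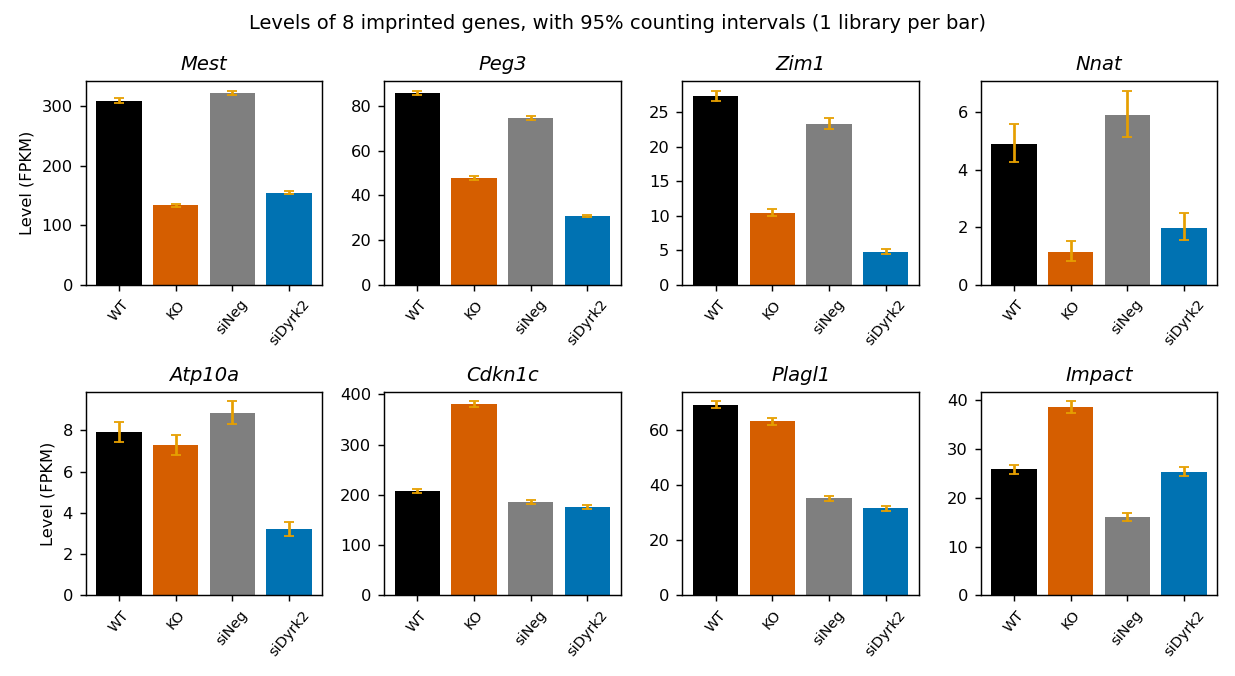
Levels of 8 imprinted genes in FPKM on linear axes from 0, 1 bar per library, with error bars for the 95% counting interval of that library. Mest, Peg3, Zim1 and Nnat are low in the knockout and siDyrk2, Atp10a only in siDyrk2, Cdkn1c is high in the knockout, Plagl1 is low in both siRNA libraries, and Impact is higher in each low-Dyrk2 library than in its control.

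The promoter-side sequence of the 5 genes that were at least 2-fold lower in either pair is shown so that their CpG content can be read, since imprinted genes are controlled by CpG methylation. Bases are from RefSeq on GRCm38.p6, 5′ to 3′ on the strand of the gene and ending just before its start, with each CpG in capitals. They lie at chr6:30737800-30738049 (plus strand) for Mest, chr2:157559828-157560077 (plus) for Nnat, chr7:6730420-6730582 (minus) for Peg3, chr7:6696433-6696682 (minus) for Zim1 and chr7:58657952-58658201 (plus) for Atp10a. For Mest, 1 of 3 RefSeq starts is shown, the one with the most CpGs. For Peg3 the 163 bases between its start and the divergent start of Usp29 are shown.
Mest: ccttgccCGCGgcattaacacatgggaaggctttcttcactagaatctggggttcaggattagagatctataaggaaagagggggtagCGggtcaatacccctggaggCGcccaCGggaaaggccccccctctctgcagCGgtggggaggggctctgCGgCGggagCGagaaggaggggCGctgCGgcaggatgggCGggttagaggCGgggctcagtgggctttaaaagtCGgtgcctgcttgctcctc
Nnat: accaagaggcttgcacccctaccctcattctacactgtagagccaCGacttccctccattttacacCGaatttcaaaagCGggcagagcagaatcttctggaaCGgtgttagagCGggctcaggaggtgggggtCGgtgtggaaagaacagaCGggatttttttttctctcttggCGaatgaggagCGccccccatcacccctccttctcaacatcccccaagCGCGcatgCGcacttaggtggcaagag
Peg3: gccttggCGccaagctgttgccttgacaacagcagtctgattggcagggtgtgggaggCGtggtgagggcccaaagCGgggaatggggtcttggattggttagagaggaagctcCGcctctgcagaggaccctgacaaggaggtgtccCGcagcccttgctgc
Zim1: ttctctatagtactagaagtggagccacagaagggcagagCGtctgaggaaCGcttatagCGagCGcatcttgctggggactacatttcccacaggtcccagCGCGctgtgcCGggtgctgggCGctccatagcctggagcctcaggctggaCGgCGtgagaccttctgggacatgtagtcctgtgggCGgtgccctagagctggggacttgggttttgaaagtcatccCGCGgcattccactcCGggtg
Atp10a: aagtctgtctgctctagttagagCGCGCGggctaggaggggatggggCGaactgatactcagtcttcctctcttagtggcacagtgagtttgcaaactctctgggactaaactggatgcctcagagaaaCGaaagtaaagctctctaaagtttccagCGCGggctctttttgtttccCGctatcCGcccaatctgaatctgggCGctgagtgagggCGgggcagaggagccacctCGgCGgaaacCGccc
In the 250 bases before the start, Mest, Zim1 and Atp10a each hold 14 CpGs, Nnat 12 and Peg3 8, of which 5 are printed. The median over 32851 RefSeq windows of the same length was 6, and 70.6%, 66.5% and 57.0% of the windows held fewer than 14, 12 and 8. The GC content was 62.4% for Mest, 54.8% for Nnat, 60.4% for Peg3, 60.0% for Zim1 and 55.6% for Atp10a. The Gli word GACCACCCA and the shorter ACCACCC inside it were searched on both strands. Neither was found in any of the 5 windows. Over all windows they were present in 0.225% and 3.92%, and of the 66 windows of the 42 listed imprinted genes that matched, 0 and 6 held them. These are matches of letters in a short window, and methylation was not measured.

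Taking both pairs at once, Mest, Zim1 and Nnat passed the 2-fold line downwards in each, 3 of 37 (8.11%), as did 0.242% of all genes. The knockout pair shares no library with the siRNA pair. Ratios had the same sign in both pairs for 27 of 37 imprinted genes (73.0%) and for 56.5% of all genes, and 17 of the 37 were lower in both, beside 3704 of the 12817 genes. Across the 37 genes the Pearson correlation of the ratios of both pairs was 0.744, and 0.243 across all genes. Without the genes at least 2-fold different in either pair it was 0.215 across 32 imprinted genes and 0.22 across the rest of all genes. The genes left out were chosen by the same ratios, so these values only describe the 2 sets of points. Genes are not independent replicates, so no p is given.

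**Figure D4:**
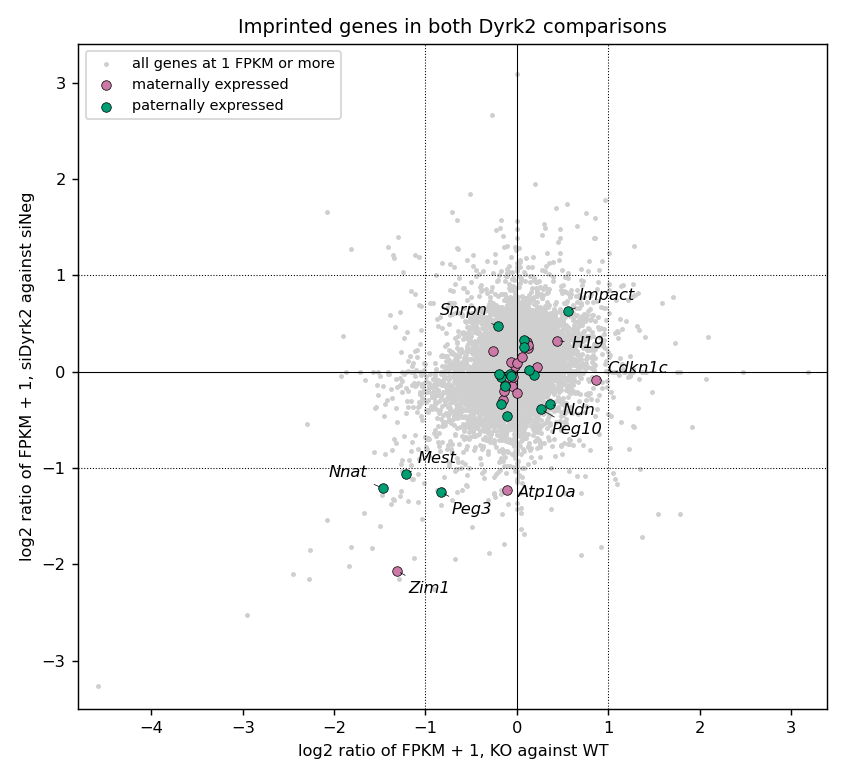
Log2 ratio of FPKM + 1 in the knockout pair (x axis) against the siRNA pair (y axis), with all kept genes in grey and the imprinted genes coloured by the parental copy expressed. Mest, Zim1 and Nnat lie in the lower left beyond both dotted 2-fold lines, Peg3 just right of it, and most of the others lie near the origin.

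Protein-coding genes around Mest, Peg3 and Nnat that are not on the list were closer to their controls. Within 500 kb of the Mest start, 5 protein-coding genes were kept, with log2 ratios of -0.49 to 0.19 in the knockout pair and -0.28 to 0.37 in the siRNA pair. Around Peg3, 5 such genes, all of them zinc finger genes, had -0.17 to 0.10 and 0.04 to 0.43. Around Nnat, 9 had -0.54 to 0.17 and -0.40 to 0.03. Of these protein-coding neighbours 0 were at least 2-fold different in either pair, and no such gene was kept around Atp10a. Over all protein-coding genes 1.01% were in the knockout pair and 0.772% in the siRNA pair, so with few neighbours 0 lies near that share. Of other gene types, the pseudogene Gm14277 near Nnat was at -1.09 in the knockout pair and Mir335, whose few fragments are given above, at -1.23 in the siRNA pair. Among kept protein-coding genes, the ratios past 2-fold at these 3 loci belonged to imprinted genes of the list. The loci were chosen because a listed gene there was past 2-fold, so this contrast was set by the choice.

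**Figure D5:**
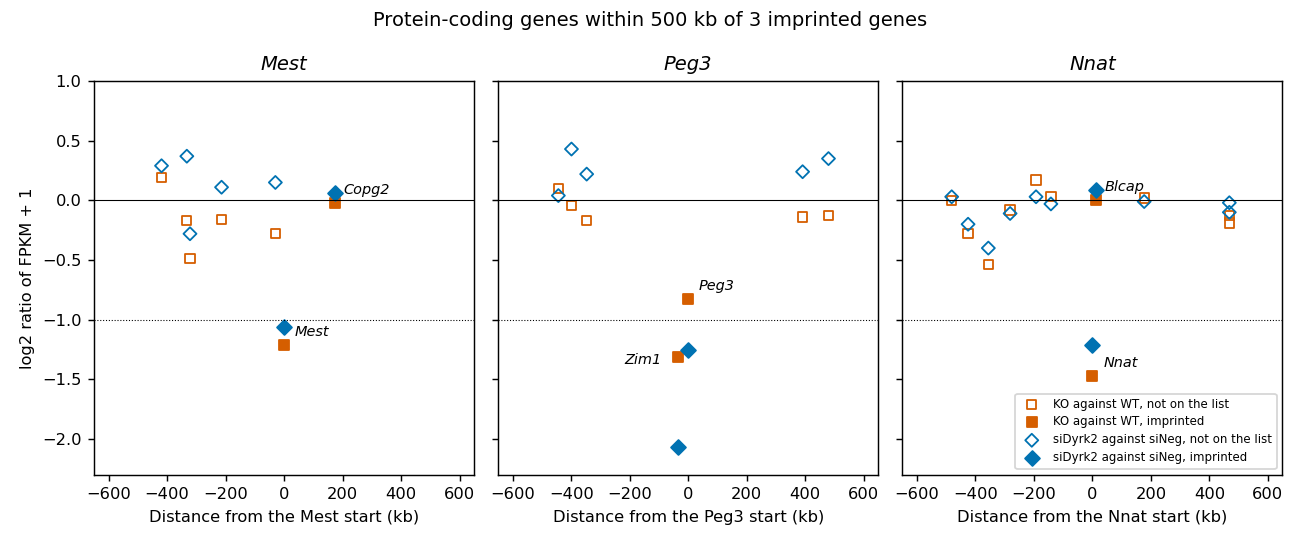
Log2 ratio of FPKM + 1 of kept protein-coding genes by the distance of their start from that of Mest, Peg3 or Nnat, in kb, with filled symbols for imprinted genes of the list and open symbols for other genes. Open symbols lie between -0.54 and 0.43, and the filled symbols of Mest, Peg3, Zim1 and Nnat lie from -0.83 to -2.07, while Copg2 and Blcap lie near 0.

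Atp10a and Cdkn1c stood apart from their control in 1 pair and lay close to it in the other, a difference between pairs that was not tested. Atp10a, a phospholipid flippase gene reported as maternally expressed in few tissues, was at 7.90 FPKM in wild type, 7.27 in the knockout, 8.83 with siNeg and 3.20 with siDyrk2. Its level was 2.76-fold lower with siDyrk2 (2.45 to 3.11) and 1.09-fold lower in the knockout, where the interval of 0.993 to 1.19 includes no difference. Cdkn1c, the maternally expressed cell cycle inhibitor also named p57, was at 207.89, 380.70, 186.09 and 175.35 FPKM in wild type, knockout, siNeg and siDyrk2. The knockout library stood alone, 1.83-fold above wild type (1.79 to 1.88), and siDyrk2 was at a ratio of 0.942 to siNeg (0.913 to 0.973). Cdkn1c shares 30.7% of its exonic bases with Gm44732 on the other strand, which was at 3.95, 7.13, 2.68 and 4.47 FPKM. In the knockout library 23 of 23 measured G2/M genes were lower, where 55.6% of all genes were. Their median log2 ratio was -1.13 there and -0.11 in the siRNA pair. With siNeg against wild type 23 of 23 were higher, with a median of 0.49, while Cdkn1c was at -0.16. In that comparison 6193 of all 12817 genes were higher and 51.0% were lower. A link of the G2/M genes with Cdkn1c was not tested.

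Of the other members of the Kcnq1ot1 cluster, 5 were kept. Kcnq1ot1 itself, the paternally expressed noncoding RNA that silences its neighbours, was at 0.06 to 0.10 FPKM. The tetraspanin gene Cd81 was at 159.92 FPKM in wild type, 173.71 in the knockout, 149.35 with siNeg and 176.00 with siDyrk2, a ratio of 1.09 (1.06 to 1.12) and 1.18 (1.15 to 1.21). Slc22a18, a transporter gene, was at 4.50, 4.92, 3.24 and 4.25 FPKM, and Tssc4 at 21.59, 17.92, 20.83 and 24.33. Nap1l4, a histone chaperone gene, and Osbpl5, a lipid transfer gene, stayed between 29.86 and 35.27 FPKM in every library. No kept member of this cluster was lower by as much as the genes of the Peg3 cluster.

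The H19-Igf2 cluster was slightly higher or near its control in the Dyrk2 comparisons. H19 was at 2131.63 FPKM in wild type, 2895.93 in the knockout, 1970.74 with siNeg and 2454.22 with siDyrk2. It was 1.36 times wild type in the knockout (1.35 to 1.37) and 1.25 times siNeg with siDyrk2 (1.24 to 1.26), so both low-Dyrk2 libraries lay above both controls. Igf2, the paternally expressed fetal growth factor that shares enhancers with H19, was at 59.84, 68.51, 45.64 and 44.44 FPKM. It was 1.14 times wild type in the knockout (1.11 to 1.18) and 0.974 times siNeg with siDyrk2 (0.937 to 1.01), and its lower values lay in both siRNA libraries. Of the exonic bases of Igf2, 62.8% are shared on the same strand with Gm49394, which stood at 0.01 FPKM or less, so fragments of the shared bases may be missing from the Igf2 values.

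Igf2r, the maternally expressed receptor that clears IGF2, was at 127.96 FPKM in wild type, 123.57 in the knockout, 130.93 with siNeg and 117.60 with siDyrk2. Airn, the paternally expressed antisense RNA of that locus, was at 1.96, 1.75, 2.13 and 1.27 FPKM, and was 1.68-fold lower with siDyrk2 (1.29 to 2.18). Grb10 was at 129.00, 123.86, 121.88 and 130.29 FPKM. The receptor that removes IGF2 and the adaptor that dampens its signal were thus within a narrow range in all 4 libraries.

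Peg10 and Ndn lay on opposite sides of their controls in the 2 pairs. Peg10, a paternally expressed gene derived from a retrotransposon, was at 2.88 FPKM in wild type, 3.66 in the knockout, 4.56 with siNeg and 3.25 with siDyrk2. It was at a ratio of 1.27 in the knockout (1.12 to 1.44) and 1.40-fold lower with siDyrk2 (1.24 to 1.59), and siNeg lay above wild type at a ratio of 1.58 (1.40 to 1.79). Ndn, a paternally expressed gene of the Prader-Willi region that encodes the MAGE family protein necdin, was at 32.86, 42.31, 26.72 and 20.97 FPKM. Among the 5 kept genes of its cluster only Ndn was above wild type in the knockout. Sgce, which shares its start region with Peg10, was at 8.06 to 9.58 FPKM. The neighbours of Peg10 reported as maternally expressed in few tissues were low: Ppp1r9a at 0.37, 0.73, 0.35 and 0.26 FPKM, Asb4 at 0.38 or less, and Calcr at 0.

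In the Prader-Willi and Angelman region, Snrpn, a paternally expressed splicing protein gene, was at 9.29 FPKM in wild type, 7.92 in the knockout, 7.28 with siNeg and 10.48 with siDyrk2. It was 1.17-fold lower in the knockout (1.02 to 1.35) and at a ratio of 1.44 with siDyrk2 (1.25 to 1.67). It shares 27.3% of its exonic bases with Gm38393 and a smaller part with Snurf, both on the same strand, so its values are uncertain. Peg12 was at 3.64, 3.12, 4.78 and 3.56 FPKM, 1.34-fold lower with siDyrk2 (1.11 to 1.62). Ube3a, the ubiquitin ligase gene whose maternal copy is used in neurons, was at 6.97, 6.30, 6.37 and 5.68 FPKM. Mkrn3 was at 0.51 FPKM or less and Magel2 at 0.03 or less.

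Impact, a paternally expressed inhibitor of the GCN2 stress kinase, was higher in each low-Dyrk2 library than in its own control. Its level was 25.87 FPKM in wild type, 38.67 in the knockout, 16.09 with siNeg and 25.37 with siDyrk2, a ratio of 1.49 (1.43 to 1.57) and 1.58 (1.48 to 1.68). The groups nevertheless overlap, because siDyrk2 lay just below wild type and siNeg was 1.61-fold below wild type (1.51 to 1.71). The size of the gap between both controls was therefore as large as the differences within the pairs. Gnas, which encodes the stimulatory G protein alpha subunit, was at 203.11, 182.67, 195.31 and 158.88 FPKM, 1.11-fold lower in the knockout (1.10 to 1.13) and 1.23-fold lower with siDyrk2 (1.21 to 1.25). Its antisense RNA Nespas was at 0.61 FPKM or less.

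The remaining kept genes showed small differences. H13, Gab1, Zrsr1, Commd1, Peg13, Trappc9 and Inpp5f lay between 2.87 and 16.34 FPKM, and each had log2 ratios between -0.20 and 0.28 in all 3 comparisons. Over the 14 kept genes whose imprinting is known from few tissues, ratios in the knockout pair were between -0.26 and 0.22, and in the siRNA pair between -1.23 (Atp10a) and 0.33 (Ddc). Ddc was at a ratio of 1.66 with siDyrk2 (1.19 to 2.37), but it passed the filter only through siDyrk2. The top of that range was thus set in part by the filter, and without Ddc it was 0.28 (Trappc9). Of the genes below the filter, Sfmbt2, a Polycomb family gene, was at 0.16 to 0.48 FPKM and Phlda2 and Ascl2 at 0.08 or less. Sfmbt2 was 2.18-fold lower with siDyrk2 (1.51 to 3.25) and 1.62-fold lower in the knockout (1.04 to 2.59), from few fragments. The kept genes at least 2-fold different on FPKM + 1 in either Dyrk2 pair were all described individually above.

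The comparison of siNeg with wild type shows how far both control cultures lay apart, and it shares a library with each of the other comparisons. In it 0 of the 37 imprinted genes were at least 2-fold different, where 0.928% of all genes were. The median was -0.07, beside -0.01 over all genes, and 27 of 37 (73.0%) lay within 0.25 of 0, beside 75.0% of all genes. Plagl1, a paternally expressed zinc finger gene that restrains proliferation, came closest to the line. It was at 69.22 FPKM in wild type, 63.16 in the knockout, 35.19 with siNeg and 31.60 with siDyrk2, so that both siRNA libraries lay below both others. Plagl1 was 1.97-fold lower with siNeg than in wild type (1.91 to 2.03), and 1.10-fold (1.07 to 1.12) and 1.11-fold lower (1.07 to 1.16) in the knockout and siDyrk2 against their own controls. Slc38a4, an amino acid transporter gene of the paternal set, was at 16.50, 14.59, 22.33 and 21.34 FPKM, a ratio of 1.35 for siNeg against wild type (1.27 to 1.45). For Plagl1 and Slc38a4 the siRNA libraries thus stood apart from the untransfected ones, whatever their Dyrk2 level.

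Genes linked to imprint maintenance and DNA methylation were described with a list of 27, of which 23 were kept. The list includes the Tet genes, whose products oxidise methylated cytosine. In the knockout 16 of 23 were lower, where 55.6% of all genes were, with a median log2 ratio of -0.07, beside -0.02 over all genes. At least 2-fold lower on FPKM + 1 was 1 of them, where 1.21% of all genes were. That gene was Uhrf1, which brings the maintenance methyltransferase to newly copied DNA. It was at 13.08 FPKM in wild type, 3.85 in the knockout, 14.43 with siNeg and 10.94 with siDyrk2. Hells, a further gene of the list, was at 5.82, 2.63, 6.27 and 4.69 FPKM. In the knockout it was 2.21-fold lower on deposited FPKM (1.97 to 2.49), with a log2 ratio of -0.91 on FPKM + 1. Dnmt1, the maintenance methyltransferase itself, was at 17.37, 10.06, 20.37 and 15.26 FPKM. Zfp57, a zinc finger protein that protects methylated imprints, was at 10.53, 6.93, 8.46 and 8.08 FPKM. With siDyrk2, 18 of 23 were lower, where 45.0% of all genes were, with a median of -0.14, beside 0.02 over all genes. None was at least 2-fold lower, where 0.796% of all genes were. The highest log2 ratios of the list were 0.16 for Tet3, an oxidase of methylated cytosine, in the knockout pair and 0.09 for Smchd1 in the siRNA pair. Between the controls the list ran from -0.29 (Tet1 and Zfp57) to 0.29 (Suz12). Uhrf1 and Dnmt1 are also genes of dividing cells, and they were lowest in the library in which the G2/M genes were lowest. Their part in the levels of the imprinted genes was not tested.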

How the data were processed

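Per the labels, column-purified, DNase-treated RNA of primary MEFs went into polyA-selected, stranded libraries. cutadapt 1.9.1, HISAT2 2.0.1 and the GRCm38 build are named by the submitters' processing notes. The counting program and the annotation were not given in the sources used here. Per the file headers, the authors deposited FPKM, with 2 decimals, beside each gene's exonic length. Multiplied by length in kilobases they sum to 1e+06 in each file within rounding.

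All 55573 identifiers were looked up in GENCODE M21, and 55480 matched, including 53 of 53 listed genes. For 51 of these the authors' length equals the exon union of M21 (not for Gnas and Rian). The ratio printed as log2 was taken after adding 1 to each FPKM, so low genes show too small a difference. Folds are ratios of the deposited FPKM. Depth was recovered from FPKM steps: 324 to 386 genes of at most 200 bases and 20 FPKM per library gave 100% whole fragments within rounding (WT 23.9 M, KO 21.9 M, siNeg 20 M, siDyrk2 21.5 M). At these depths 3 fragments of a gene of 2 kb are 0.0627, 0.0686, 0.0751 and 0.0699 FPKM. Because values carry 2 decimals, fragment numbers of long genes at low FPKM are approximate. Each interval is the exact Clopper-Pearson one, at 95%, of a binomial conditional on the summed fragments of a pair of libraries, and covers counting error only.

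Groups of 1 library allow no test, so genes were counted by a rule of size, 2-fold on FPKM + 1. Named in full were genes past that line, the 5 highest by mean level, and the 3 highest and 3 lowest ratios in each comparison, with their oppositely imprinted neighbours. From the other lists the rule took genes past the line and the highest and lowest in each comparison. Members and lists were chosen with earlier results of these data known. The interval calculation was tested on simulated data. Computation used Python 3.11.15, pandas 2.3.3, scipy 1.17.1 and matplotlib 3.10.9. Alternatives were other pseudocounts, filters and scalings, and protein-coding genes alone.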

Additional observations from a re-analysis of the deposited data

Results flagged for a closer look

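Peg10 and Ndn had log2 ratios of opposite sign in the knockout pair and the siRNA pair, each more than 0.25 in size. Opposite signs were also seen where a ratio was smaller, as for Snrpn (-0.21 and 0.47) and Tssc4 (-0.26 and 0.21). For Peg10 the ratio was 0.26 in the knockout against wild type and -0.39 with siDyrk2 against siNeg, so that the first exceeded the second by 0.65. For Ndn the ratios were 0.36 and -0.34, a gap of 0.69. With 1 library per group the difference between the pairs was not tested.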

How the results depend on the processing

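The number of imprinted genes at least 2-fold different in the siRNA pair was 5 and became 3 with a pseudocount of 5 FPKM, under which Mest, Peg3 and Zim1 were past the line. Nnat and Atp10a were not, since a larger pseudocount shrinks the ratios of low genes. With the same pseudocount the knockout pair gave 2 (Mest and Zim1) in place of 3. Under a pseudocount of 0.1 FPKM, no filter, a filter of 5 FPKM, trimmed-mean or median-ratio scaling, or protein-coding genes only, the named genes past the line were those of the main counts in every comparison, and no ratio of a named gene reversed. Of 51 ratios of named genes, 12 moved beyond their counting interval with a pseudocount of 5 FPKM, 3 with 0.1 FPKM, and 4 with either scaling. Scaling moved the median of all genes by at most 0.03 on the log2 scale.

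Over all genes, 228 were at least 2-fold different in the knockout pair, 198 in the siRNA pair and 119 between the controls. These became 607, 506 and 340 with a pseudocount of 0.1 FPKM, 22, 33 and 11 with 5 FPKM, 103, 85 and 32 with a filter of 5 FPKM, and 112, 86 and 17 with protein-coding genes only. No paired analysis was possible because each group holds 1 library. For the same reason no library could be left out. Depth limits the low genes most: of those named in full, Nnat had 45 to 216 fragments per library and Ddc 43 to 99.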

Other observations

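Of a list of 35 further imprinted genes, 16 were kept. On the scale of FPKM + 1, 0 of them were at least 2-fold different in any comparison. Of all genes, 1.78% were in the knockout pair, 1.54% in the siRNA pair and 0.928% between the controls. The medians of the list were 0.09, -0.02 and 0.05 in that order. Dcn, the gene of the matrix proteoglycan decorin, whose imprinting is known from the placenta, was the highest of them in the knockout. It was at 256.64 FPKM in wild type, 507.71 in the knockout, 237.79 with siNeg and 256.45 with siDyrk2, so the knockout library stood alone at a ratio of 1.98 (1.95 to 2.00). Dhcr7, an enzyme of cholesterol synthesis, was the lowest there, at a log2 ratio of -0.30. In the siRNA pair the lowest were Htr2a, a serotonin receptor gene at 2.59, 3.29, 2.54 and 1.08 FPKM, and Pon2, a lactonase gene at 3.52, 3.45, 4.91 and 2.48 FPKM. On deposited FPKM, without the added 1, Htr2a was 2.35-fold lower there (1.91 to 2.92). Tfpi2, a protease inhibitor gene, was the highest there, at 0.57, 0.60, 0.60 and 1.20 FPKM in wild type, knockout, siNeg and siDyrk2. The ratio of Tfpi2 on deposited FPKM was 2.0 (1.16 to 3.52), from 45 fragments with siDyrk2 and 21 with siNeg. Tfpi2 passed the filter only through siDyrk2, so its place at the top was set in part by the filter. Between the controls the list ran from -0.44 (Qpct) to 0.39 (Pon2).

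Partners of IGF2 were described with 14 genes, all kept. With siDyrk2, 12 of 14 were lower than with siNeg, where 45.0% of all genes were, with a median log2 ratio of -0.30, beside 0.02. None was at least 2-fold different, where 1.54% of all genes were. In the knockout 8 of 14 were lower, near the 55.6% of all genes, with a median of -0.06, beside -0.02. Igf1, a growth factor gene of the same family, was at 27.19 FPKM in wild type, 25.11 in the knockout, 33.29 with siNeg and 18.36 with siDyrk2. It was 1.81-fold lower in the siRNA pair. The shared receptor gene Igf1r was at 10.70, 8.86, 11.78 and 8.75 FPKM. Igfbp4, whose product binds IGFs and limits their action, was at 212.20, 141.24, 148.67 and 98.63 FPKM, 1.50-fold lower in the knockout and 1.51-fold lower with siDyrk2. Igfbp5, another binding protein gene, was at 261.01, 377.04, 135.80 and 141.20 FPKM, and like Plagl1 it was lower in both siRNA libraries than in wild type. Igfbp3 was the highest of the list in the siRNA pair, at a log2 ratio of 0.30, Igfbp6 the highest in the knockout pair, at 0.54, and Igf2bp2 the highest between the controls, at 0.39.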
